A study of Mus musculus with 10 samples.

Results

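The genes described are 8 genes used to recognise osteocytes: Sost, Dmp1, Mepe, Phex, Dkk1, Pdpn, Fgf23 and Irx5. They were taken by symbol from 35705 genes with a summed transcript level, and 7 of them were among the 13841 genes tested. Fgf23 was below the minimum mean level of 1 TPM and is given by its values alone. TPM is the abundance of a transcript per unit of its length, relative to a fixed library total.

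Osteocytes are former osteoblasts that have become enclosed in the mineralised bone matrix, where they remain connected through long dendrites. They secrete sclerostin and DKK1, which bind the Wnt co-receptors LRP5 and LRP6 and restrain bone formation, and they are the main source of the phosphate-lowering hormone FGF23. DMP1, MEPE and PHEX act on mineral deposition and phosphate balance in the same cells.

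RNA was sequenced from medial knee cartilage caps of 10 untreated mice (1 library each), of which 5 were wild-type and 5 Mir324-null, in a study of how the microRNA miR-324 acts on bone-forming and bone-resorbing cells. Every library was labelled as articular cartilage and chondrocyte. The strain, age and sex of the mice, and how the null allele was made, were not given in the sources used here. The level of Mir324 was not analysed here, and the labels were therefore not checked by the targeted gene.

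The libraries held chondrocyte transcripts together with those of bone and blood-forming cells. Aggrecan (Acan) ranged from 60.2 to 287 TPM over the 10 mice and Col2a1 from 33.9 to 143 TPM, while 3 of the 10 listed cartilage genes, Col9a1, Matn1 and Matn3, were below the minimum. Bglap, the osteoblast gene for osteocalcin, ranged from 1020 to 5138 TPM. Of the 5 genes against which the osteocyte label was checked, Sost, Dmp1, Mepe and Phex were present in all 10 libraries, and Fgf23 was listed above 0 in 6. Wild-type replicate 1 stood apart: the first principal component, with 26.7% of the variance, placed it at -54.8 and the other 9 libraries between -12.1 and 30.2. In all, 0 of 13841 genes reached an adjusted p under 0.05 (limma, Benjamini-Hochberg), the smallest adjusted p being 0.277, and 1603 had an unadjusted p under 0.05, of which 1011 were lower and 592 higher in null mice. The exact permutation test, which splits the 10 mice in every way, also gave 0 genes with an adjusted p under 0.05 and 1461 with an unadjusted one. This split changed with the scaling of the libraries: median ratio scaling gave 860 lower and 914 higher, quantile normalization gave 929 and 884, and rescaling without the haemoglobin genes gave 577 and 1217.

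In the Mir324-null mice, all 7 osteocyte genes tested had a mean log2 level below that of the wild-type mice, and none passed the adjusted threshold. The median change was -0.89 on the log2(TPM + 1) scale, against -0.05 over all genes tested, of which 60.0% had a change below 0. An unadjusted p under 0.05 was found for 6 of the 7 (Sost, Dmp1, Mepe, Phex, Dkk1 and Irx5) where 7.30% of all genes tested were lower with such a p, and an adjusted p under 0.05 for 0 of 7, as for 0% of all genes. These 6 genes varied together over the same mice, with Pearson r of 0.830 to 0.983 between pairs, so their p-values are not independent. By the exact permutation test 3 of the 7, Dmp1, Phex and Dkk1, had an unadjusted p under 0.05. The limma count was also 3 of 7 when wild-type replicate 1, null replicate 4 or null replicate 5 was left out. Only Phex, 1 of the 7, had genotypes that did not overlap, a separation seen with null lower in 1.06% of genes tested. Under these 3 scalings, in the same order, the 7 stayed lower, with medians of -0.83, -0.86 and -0.81. In bulk tissue, fewer osteocytes and less RNA per osteocyte cannot be told apart.

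**Figure D1:**
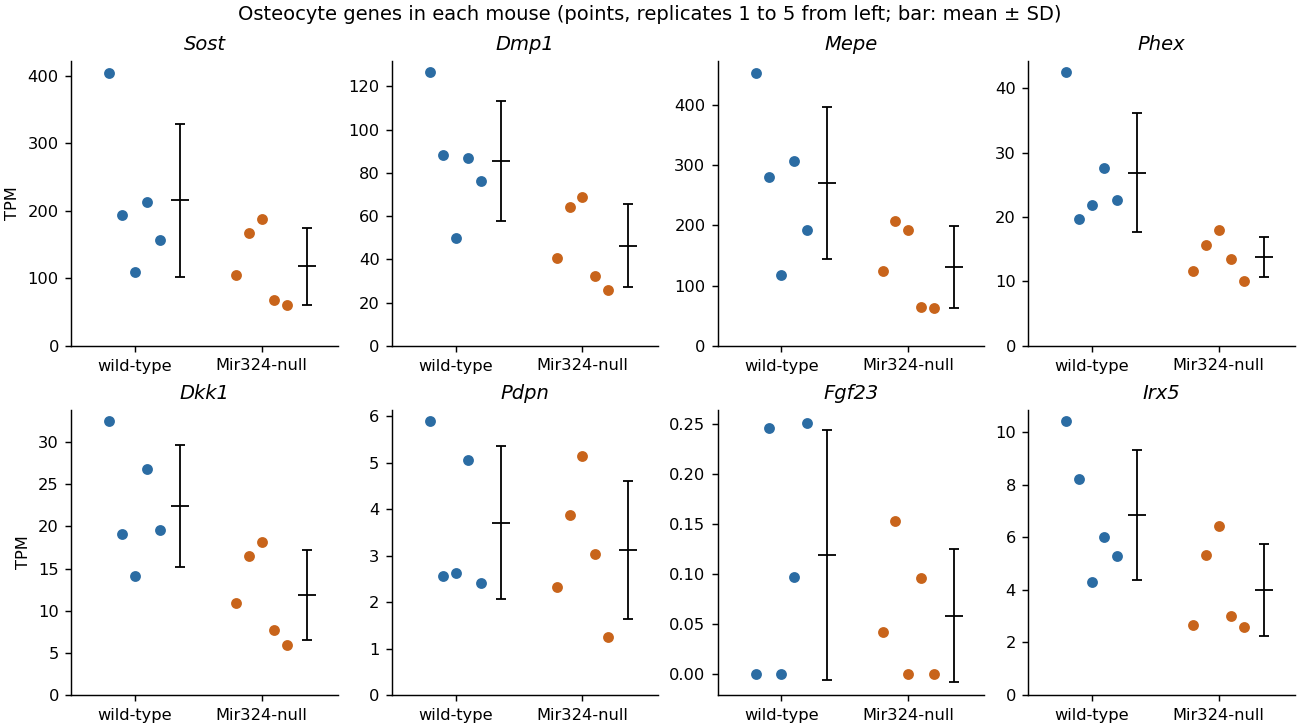
TPM (vertical axis) of each of the 8 genes in each of the 10 mice, with wild-type mice in blue, null mice in orange, replicates 1 to 5 from left to right, and bars giving the mean and SD of each genotype. Phex is the gene whose null mice, at 10.1 to 17.96 TPM, all lie below the lowest wild-type mouse, at 19.7 TPM, and Fgf23 is near 0 throughout.

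The microRNA missing from the null mice gives rise to a pair of mature strands. They are shown because a messenger RNA is a candidate target of a strand when its 3′ UTR holds the complement of the seed, bases 2 to 8, which is in capitals here (RefSeq, GRCm38.p6, plus strand, chr11:70012060-70012082 and chr11:70012095-70012114).
mmu-miR-324-5p: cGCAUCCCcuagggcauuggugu
mmu-miR-324-3p: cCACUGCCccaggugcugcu
The complement of the first seed is GGGATGC and that of the second is GGCAGTG. When the longest 3′ UTR of every osteocyte gene was searched, 7-base complements were found in Sost and Dkk1. The other 6, Dmp1, Mepe, Phex, Pdpn, Fgf23 and Irx5, held none. Over 12587 genes tested with a 3′ UTR, 8.501% held the complement of the 5p seed and 15.4% that of the 3p seed. A match is a description and not a shown site of action, and no match says only that these letters are not in this 3′ UTR.

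Sost encodes sclerostin, the Wnt inhibitor that osteocytes secrete. Its 3′ UTR of 1388 bases held 2 complements of the miR-324-3p seed, starting at its bases 262 and 1284 and shown in capitals with their surroundings (GENCODE M21, GRCm38).
Sost, first match: atacaggacaaGGCAGTGtttccacctta
Sost, second match: ttgtagagaaaGGCAGTGttaatatcgct
Sost (ENSMUSG00000001494, chromosome 11, 101962458 to 101967015) was at 404, 193, 109, 212 and 157 TPM in wild-type replicates 1 to 5 and at 105, 166, 187, 68.4 and 60.8 TPM in null replicates 1 to 5. Wild-type replicate 1 was far above all others, null replicates 4 and 5 were the lowest, and the genotypes overlapped, with 3 of 5 null mice below every wild-type mouse. The means were 215 ± 113 and 118 ± 57.1 TPM (SD, n = 5), so that the null mean was 45.4% lower. The log2 change was -0.87 ± 0.38 (SE), with an unadjusted limma p of 0.0394, an adjusted p of 0.410 and an exact permutation p of 0.0873. Without wild-type replicate 1, the wild-type mean was 168 ± 45.4 TPM (n = 4) and the change -0.61. The unadjusted limma p was under 0.05 in 4 of the 10 fits that each left out 1 mouse. The spread within genotypes, an SD of 0.71 on the log2 scale, was larger than that of 96.1% of genes tested.

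Dkk1 encodes a second secreted Wnt inhibitor, which acts through the same co-receptors. Its 3′ UTR of 1322 bases held 1 complement of the miR-324-5p seed, starting at its base 899.
Dkk1, match: gctgaggcagaGGGATGCccatgaactca
Dkk1 (ENSMUSG00000024868, chromosome 19, 30545863 to 30549665) was at 32.5, 19.1, 14.1, 26.8 and 19.6 TPM in the wild-type mice and at 10.97, 16.4, 18.2, 7.70 and 5.90 TPM in the null mice, in replicate order. The order of mice was close to that of Sost: wild-type replicate 1 was highest, wild-type replicate 3 lowest of its genotype, and null replicates 2 and 3 reached into the wild-type range. Dkk1 averaged 22.4 ± 7.23 and 11.8 ± 5.35 TPM (SD, n = 5), 47.2% lower in null mice. Its log2 change of -0.92 ± 0.30 (SE) had an unadjusted limma p of 0.00949, an adjusted p of 0.324 and an exact permutation p of 0.0397. It was -0.78 without wild-type replicate 1, and the unadjusted p stayed under 0.05 in all 10 fits that left out 1 mouse.

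Dmp1 and Mepe belong to the SIBLING family of acidic matrix proteins, which bind the mineral of bone and dentine. The family's genes lie side by side on chromosome 5: Dspp (104170712 to 104180127), Dmp1 (ENSMUSG00000029307, 104202613 to 104214102), Ibsp (104299171 to 104311469), Mepe (ENSMUSG00000053863, 104325329 to 104338611) and Spp1 (104435118 to 104441050). DMP1 promotes mineral deposition and is needed to keep FGF23 low. Dmp1 was at 127, 88.0, 49.9, 86.8 and 76.2 TPM in wild-type replicates 1 to 5 and at 40.8, 64.4, 68.7, 32.3 and 25.7 TPM in null replicates 1 to 5. Of the wild-type mice 4 lay above every null mouse, and wild-type replicate 3 lay among the null values. The Dmp1 means were 85.5 ± 27.6 and 46.4 ± 19.2 TPM (SD, n = 5), 45.8% lower in null mice. The log2 change was -0.91 ± 0.29 (SE), with an unadjusted limma p of 0.00942, an adjusted p of 0.324 and an exact permutation p of 0.0476. Without wild-type replicate 1 it was -0.75, and the unadjusted p was under 0.05 in all 10 fits with 1 mouse left out.

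Mepe, matrix extracellular phosphoglycoprotein, carries the acidic ASARM peptide that inhibits mineralisation once released. It was at 454, 281, 118, 308 and 193 TPM in the wild-type mice and at 124, 207, 192, 65.0 and 62.8 TPM in the null mice. Wild-type replicate 3 lay below 3 of the null mice, and null replicates 4 and 5 were the lowest of all. Mepe averaged 271 ± 127 and 130 ± 68.2 TPM (SD, n = 5), 51.8% lower in null mice. Its log2 change, -1.09 ± 0.41 (SE), was the furthest from 0 among the 7 genes and came with the widest spread within genotypes, an SD of 0.78, larger than in 96.6% of genes tested. The unadjusted limma p was 0.0220, the adjusted p 0.358 and the exact permutation p 0.0794. Without wild-type replicate 1 the change was -0.86 with an unadjusted limma p of 0.0576 (adjusted 0.615), and the unadjusted p was under 0.05 in 7 of the 10 fits with 1 mouse left out.

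Of the other SIBLING genes, Spp1 (osteopontin) averaged 1832 ± 582 TPM in wild-type mice and 958 ± 225 TPM in the null mice (SD, n = 5), a log2 change of -0.90 with an adjusted limma p of 0.283. Ibsp, bone sialoprotein, averaged 260 ± 65.2 and 190 ± 51.8 TPM (SD, n = 5), a log2 change of -0.46 with an adjusted limma p of 0.427. Dspp, a gene of dentine, had at most 0.0195 TPM in any library.

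Phex encodes an endopeptidase of the osteocyte and osteoblast membrane whose loss raises FGF23 and causes hypophosphataemia. Phex (ENSMUSG00000057457, chromosome X, 157162075 to 157415312) was at 42.6, 19.7, 21.9, 27.6 and 22.7 TPM in the wild-type mice and at 11.7, 15.6, 17.96, 13.5 and 10.1 TPM in the null mice. Every null mouse lay below every wild-type mouse. The means were 26.9 ± 9.24 and 13.8 ± 3.13 TPM (SD, n = 5), so that the null mean was 48.8% lower. The log2 change was -0.89 ± 0.21 (SE), with the smallest unadjusted limma p of the 7 genes, 0.00115, an adjusted p of 0.277 and an exact permutation p of 0.00794, the smallest that 252 splits of 10 mice allow. Adjusted over all genes tested, this exact permutation p became 0.399. Without wild-type replicate 1 the wild-type mean was 23.0 ± 3.31 TPM (n = 4) and the log2 change -0.72.

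Phex was the one gene of the 8 with several abundant transcripts. The mean of Phex-201 was 10.9 TPM in wild-type mice and 6.68 TPM in the null mice, and Phex-202 averaged 13.2 and 6.42 TPM. The minor transcript Phex-203 ranged from 1.68 to 3.87 TPM in wild-type and from 0 to 1.10 TPM in null mice, without overlap. Its share of the gene's TPM averaged 10.7% in wild-type and 4.44% in null mice. These transcript levels are estimates that divide reads shared by overlapping transcripts, and they were not tested. Phex as a whole also did not overlap between genotypes, and the share of all transcripts without overlap was not computed.

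Fgf23 encodes the hormone by which bone lowers phosphate in the blood. Fgf23 (ENSMUSG00000000182, chromosome 6, 127072902 to 127081408) was listed at 0, 0.246, 0, 0.0975 and 0.251 TPM in wild-type replicates 1 to 5 and at 0.0424, 0.154, 0, 0.0963 and 0 TPM in null replicates 1 to 5. It was listed at 0 in 4 of the 10 libraries, 2 of each genotype, including wild-type replicate 1, in which the other 7 genes were highest. At this level nothing is read from the difference between genotypes.

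Pdpn encodes podoplanin (E11), a membrane glycoprotein of the early osteocyte that takes part in forming its dendrites and is also found on lymphatic endothelium and fibroblasts. Pdpn (ENSMUSG00000028583, chromosome 4, 143267431 to 143299564) was at 5.90, 2.55, 2.62, 5.06 and 2.42 TPM in the wild-type mice and at 2.33, 3.88, 5.14, 3.03 and 1.24 TPM in the null mice. Here 3 null mice lay above 3 of the wild-type mice, which were close together between 2.42 and 2.62 TPM. Pdpn averaged 3.71 ± 1.64 and 3.12 ± 1.49 TPM (SD, n = 5). The log2 change of -0.21 ± 0.29 (SE) was smaller than the spread between mice, with an unadjusted limma p of 0.492, an adjusted p of 0.863 and an exact permutation p of 0.540. It was -0.0072 without null replicate 5, -0.05 without wild-type replicate 1, -0.10 without wild-type replicate 4 and -0.37 without null replicate 3.

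Irx5 encodes a homeobox transcription factor of the Iroquois family. Irx5 (ENSMUSG00000031737, chromosome 8, 92357625 to 92376286) was at 10.4, 8.23, 4.32, 6.003 and 5.28 TPM in the wild-type mice and at 2.67, 5.33, 6.43, 2.999 and 2.58 TPM in the null mice. Null replicates 1, 4 and 5 lay below all wild-type mice, and null replicates 2 and 3 lay within the wild-type range. The means were 6.85 ± 2.47 and 4.00 ± 1.77 TPM (SD, n = 5), 41.7% lower in null mice. Its log2 change was -0.66 ± 0.26 (SE), with an unadjusted limma p of 0.0266, an adjusted p of 0.372 and an exact permutation p of 0.0714. The change without wild-type replicate 1 was -0.52, with an unadjusted limma p of 0.0680 (adjusted 0.633), and the unadjusted p was under 0.05 in 5 of the 10 fits that left out 1 mouse. Of the 5 other Iroquois genes, Irx3 passed the minimum, at 5.23 ± 2.17 and 3.28 ± 0.963 TPM (SD, n = 5; log2 change -0.51, adjusted limma p 0.425, and -0.32 without wild-type replicate 1). Irx3 and Irx6 are the neighbours of Irx5 on chromosome 8. Irx6 was at most 0.308 TPM, and Irx4 was listed at 0 in every library.

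The order of levels was the same in most mice. Mepe was above Sost in 9 of 10 mice, the ratio of Sost to Mepe running from 0.689 to 1.05, so that these neighbours differed little against their spread. Dmp1 came next, with Sost 2.06 to 3.19 times higher than Dmp1 in every mouse, and Dmp1 was in turn 2.28 to 4.47 times higher than Phex. Phex and Dkk1 were not separated: Phex was higher in 8 of 10 mice, with a ratio of 0.949 to 1.75. Dkk1 was 2.29 to 4.47 times higher than Irx5. Irx5 was above Pdpn in 9 of 10 mice, at a ratio of Pdpn to Irx5 of 0.310 to 1.01, and Fgf23 was last.

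The 8 genes summed to 631 ± 283 TPM in wild-type mice and 327 ± 154.5 TPM in the null mice (SD, n = 5), with ranges of 320.2 to 1076 and 169 to 496 TPM. The make-up of this sum was similar in both genotypes. Mepe held 42.2% ± 3.79 of it in wild-type and 38.9% ± 3.80 in null mice, and Sost held 33.6% ± 2.48 and 35.8% ± 1.20 (SD, n = 5). Dmp1 held 14.1% ± 1.79 and 14.6% ± 1.39. Pdpn, the smallest share among the genes tested, held 0.609% ± 0.170 and 0.986% ± 0.346.

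The mice kept much the same order from gene to gene. Wild-type replicate 1 was the highest and null replicate 5 the lowest of the 10 mice for all 7 genes tested. Wild-type replicate 3 was the lowest wild-type mouse for 5 of the 7, and null replicate 3 the highest null mouse for 6. Over the 10 mice, the Pearson correlation of log2(TPM + 1) between 2 of the genes other than Pdpn had a median of 0.938 over 15 pairs, with a range of 0.830 to 0.983. It had a median of 0.725 over the 6 pairs with Pdpn, with a range of 0.705 to 0.789. Without wild-type replicate 1 these ranges were 0.751 to 0.984 and 0.578 to 0.703. The closest pair was Dmp1 and Dkk1, which lie on different chromosomes, with a ratio of 3.23 to 4.62 in every mouse. These values are descriptions, since the points share their genotype and the total of each library.

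The 7 osteocyte genes tested were left out when the genes that followed each of them most closely over the 10 mice were ranked. The genes found were not on the lists of bone cells, with Lrp5 as the one listed among the Wnt receptors. For Sost they were Arhgap31 (Pearson r = 0.986), Fbxo32 (0.984) and Dab2 (0.983), for Dmp1 Arhgap31 (0.987), Rnf150 (0.985) and Olfml2a (0.983), and for Mepe Olfml2a (0.981), Tgfb2 (0.979) and Ccdc194 (0.975). For Dkk1 they were Mcrs1 (0.991), Olfml2a (0.984) and Rnf150 (0.982). Phex was followed by Lrp5 (0.984), Klhl8 (0.980) and Nog (0.977), which encodes the BMP antagonist noggin. Pdpn was followed by Wfdc1 (0.981), Ptgfrn (0.955) and Loxl2 (0.951), and Irx5 by Cyb561 (0.980), Tns3 (0.973) and Cd276 (0.971). Olfml2a thus appeared for 3 of the genes. Among the osteocyte genes themselves, Mepe and Sost (0.9815) were closer than any gene named for Mepe. These are the highest of many correlations over 10 mice and carry no test.

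Because the RNA came from whole tissue, the osteocyte genes were set beside the genes of the cells they arise from. The 13 listed osteoblast genes were all lower in null mice, 10 of them with an unadjusted limma p under 0.05 and none with an adjusted one, and their median change was -0.74. The 10 became 6 without wild-type replicate 1, null replicate 1 or null replicate 5. Their summed level ranged from 9795 to 19520 TPM in wild-type and from 5030 to 10120 TPM in null mice. Bglap averaged 3577 ± 1430 and 1596 ± 452 TPM (SD, n = 5; log2 change -1.10, adjusted limma p 0.291), and Col1a1, the main collagen of bone, 1522 ± 401 and 829 ± 339 TPM (SD, n = 5; log2 change -0.94, adjusted limma p 0.308). The osteoblast score, the mean log2(TPM + 1) of the 13 genes, was 7.96 ± 0.40 in wild-type and 7.22 ± 0.43 in null mice (SD, n = 5).

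Each osteocyte gene followed this score over the 10 mice, with Pearson r from 0.781 for Pdpn to 0.931 for Phex and Spearman's rho from 0.685 for Pdpn to 0.891 for Dmp1. Without the 2 mice farthest from the median score, wild-type replicate 1 and null replicate 1, the Pearson r ran from 0.737 for Pdpn to 0.906 for Phex. The score and the genes share each library's total, and these values are descriptions. On the log2 scale, the level of a gene minus the score differed between the genotypes (null minus wild-type) by -0.13 for Sost, -0.16 for Dmp1, -0.34 for Mepe, -0.15 for Phex, -0.18 for Dkk1 and 0.08 for Irx5. For Pdpn it was -5.79 ± 0.13 in wild-type and -5.25 ± 0.29 in null mice (SD, n = 5), a difference of 0.54, and 4 of the 5 null mice lay above every wild-type mouse. The score itself averaged 7.96 in wild-type and 7.22 in null mice, so any gene that fell less than the score has a difference above 0. The change of Pdpn, -0.21, was further below 0 than the median of -0.05 over all genes tested. The share of all genes placed like Pdpn was not computed.

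**Figure D2:**
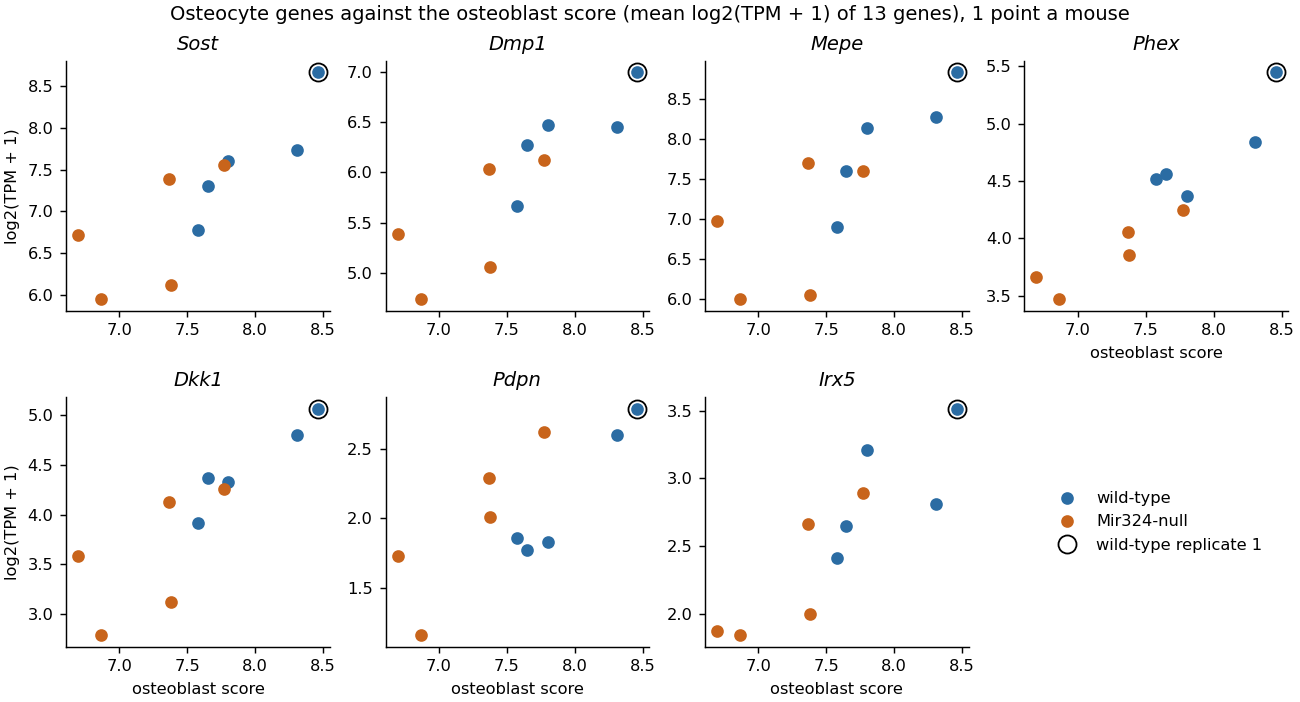
Level of each of the 7 genes tested, as log2(TPM + 1) on the vertical axis, against the osteoblast score on the horizontal axis, with 1 point per mouse, wild-type in blue, null in orange and wild-type replicate 1 ringed. Sost, Dmp1, Mepe, Phex, Dkk1 and Irx5 of both genotypes scatter along 1 band. For Pdpn, most null mice lie higher relative to the score than every wild-type mouse. The score itself is lower in null mice, which raises any gene that fell less than the score. Only null replicate 3, at 7.77, had a score within the wild-type range of 7.58 to 8.46.

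With the osteoblast score as a covariate in limma, the change of the 7 genes had a median of -0.19 and 5 of the 7 were below 0. The change was 0.05 ± 0.38 (SE) for Sost, -0.21 ± 0.30 for Dmp1, -0.19 ± 0.46 for Mepe, -0.32 ± 0.18 for Phex, -0.20 ± 0.31 for Dkk1 and -0.02 ± 0.26 for Irx5. For Pdpn it was 0.63 ± 0.22 (SE), with an unadjusted limma p of 0.0154. All 7 had an adjusted limma p of 0.9995 in this fit. The score ranged from 7.58 to 8.46 in wild-type and from 6.70 to 7.77 in null mice, so that few mice of the 2 genotypes shared a score.

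**Figure D3:**
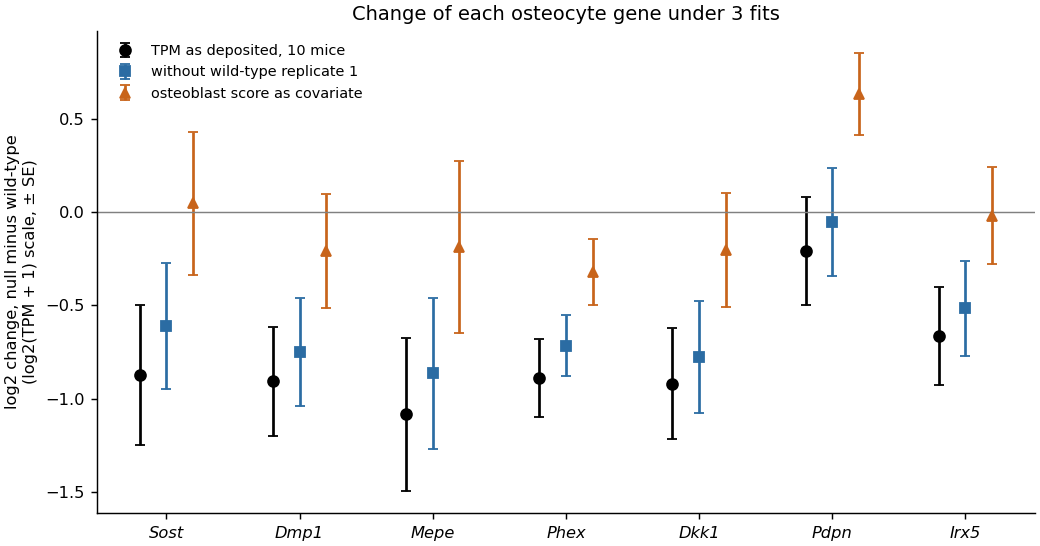
Log2 change, null minus wild-type, with its standard error (vertical axis), of each of the 7 genes tested, in all 10 mice (black circles), without wild-type replicate 1 (blue squares) and with the osteoblast score as a covariate (orange triangles). All 7 lie below 0 in the first and second fit, and in the third Sost is at 0.05 and Pdpn at 0.63.

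Markers of other cell types in the joint are given beside the osteocyte genes, and none of them had an adjusted limma p under 0.05. All 6 osteoclast genes tested had a lower mean log2 level in null mice, with an unadjusted limma p under 0.05 and a median change of -0.97, and their list summed to 1435 to 3243 TPM in wild-type and 942 to 1933 TPM in null mice. Ctsk, the collagen-degrading protease cathepsin K, averaged 632 ± 258 and 251 ± 136 TPM (SD, n = 5; log2 change -1.37, adjusted limma p 0.308). Of the 7 cartilage genes tested, 6 were lower, 5 of them with an unadjusted limma p under 0.05, with a median of -0.66 and sums of 1922 to 6132 and 1621 to 2909 TPM. The 5 became 3 without wild-type replicate 4, null replicate 1 or null replicate 5. The cartilage sums were mostly Prg4, which averaged 2902 ± 1492 and 1737 ± 411 TPM (SD, n = 5) and was not among these 5. Of the 5 hypertrophic chondrocyte genes, all were lower and 3 had such a p, with sums of 283 to 789 and 182 to 303 TPM. All 4 marrow adipocyte genes tested were lower with such a p, with a median of -0.72 and sums of 280 to 467 and 205 to 348 TPM.

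Erythroid genes ran the other way. All 7 were higher in null mice, 4 with an unadjusted limma p under 0.05, with a median of 0.44, and summed to 112600 to 198800 TPM in wild-type and 159200 to 263600 TPM in null mice. Quantile normalization left 1 of the 7 below 0, and the 4 became 1 when wild-type replicate 5, null replicate 4 or null replicate 5 was left out, and 2 when it was wild-type replicate 1. Of the B lineage genes all 6 were lower, 2 of them with an unadjusted limma p under 0.05, a number that was 0 under median ratio scaling or rescaling without haemoglobin genes, and of the blood endothelial genes 4 of 5 were lower, 2 with such a p. The 7 neutrophil genes were all below 0 with none at such a p, a direction that held for 3 to 4 of the 7 under the other scalings. The part of these cell types in the osteocyte result was not tested. The fit with the osteoblast score cannot separate an osteoblast part from genotype, because few mice of the genotypes shared a score.

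For podoplanin, the other cells that carry it were examined. Of the 4 lymphatic endothelial genes, Lyve1 and Flt4 were tested, Prox1 was under the minimum, and Ccl21a was listed at 0 in every wild-type library and reached 0.957 TPM in null mice. The 4 genes summed to 5.56 to 6.12 TPM in wild-type and 5.87 to 8.98 TPM in null mice. Lyve1 averaged 1.35 ± 0.299 and 2.42 ± 1.15 TPM (SD, n = 5; log2 change 0.48, adjusted limma p 0.439). Of the 7 synovial lining and fibroblast genes, 5 were higher and none had an unadjusted limma p under 0.05. Their sum, mostly Prg4, which is also on the cartilage list, ranged from 1630 to 5183 and from 1405 to 2473 TPM. Of the 6 tested genes whose products bind podoplanin, 4 were lower and 2 higher, with a median of -0.07, and rescaling without haemoglobin genes turned this to 2 lower. Clec1b, the platelet receptor for podoplanin, averaged 67.3 ± 16.0 and 92.1 ± 26.2 TPM (SD, n = 5; log2 change 0.43, adjusted limma p 0.510).

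Other osteocyte genes, and genes of the pathways in which the osteocyte products act, had median changes nearer to 0. Of the 11 other osteocyte genes tested, 10 were lower, 4 with an unadjusted limma p under 0.05, and the median was -0.50. Gja1, the connexin of the osteocyte's gap junctions, averaged 93.1 ± 21.4 and 52.9 ± 16.2 TPM (SD, n = 5; log2 change -0.83, adjusted limma p 0.283). Tnfsf11, which encodes the osteoclast-inducing cytokine RANKL, averaged 3.48 ± 0.899 and 2.04 ± 0.642 TPM (SD, n = 5; log2 change -0.56, adjusted limma p 0.338). Mmp14, a membrane protease, and Ptprz1, a receptor phosphatase, were the other genes with such a p, with log2 changes of -0.75 and -0.57. One listed symbol, Destn, matched no annotated gene.

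Wnt inhibitors and receptors other than Sost and Dkk1 were lower for 8 of the 10 tested, 4 of them with an unadjusted limma p under 0.05 (2 without wild-type replicate 1, wild-type replicate 2 or null replicate 1), and the median was -0.34. The 4 were Lrp5, at 21.4 ± 4.04 and 15.7 ± 1.85 TPM (SD, n = 5; log2 change -0.42, adjusted limma p 0.319), the sclerostin-anchoring receptor gene Lrp4 (log2 change -0.55), and the inhibitor genes Sfrp4 (-0.50) and Wif1 (-0.63). The Wnt response genes, which are transcribed when the pathway is active, had a median of -0.11, with 5 of 7 lower and none with an unadjusted limma p under 0.05. Among them Tcf7 averaged 7.98 ± 2.06 and 6.34 ± 2.13 TPM (SD, n = 5; log2 change -0.31, adjusted limma p 0.648).

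Of the 13 phosphate and mineral genes tested, 11 were lower, 3 with an unadjusted limma p under 0.05, and the median was -0.41. Leaving out 1 mouse gave 1 to 7 such genes, with 1 without wild-type replicate 2 or 4 or null replicate 4 or 5, 6 without null replicate 3 and 7 without wild-type replicate 3. The 3 were Xpr1, a phosphate exporter, at 18.8 ± 1.22 and 14.3 ± 3.54 TPM (SD, n = 5; log2 change -0.41, adjusted limma p 0.348), Enpp1, which makes the mineral inhibitor pyrophosphate (log2 change -0.50), and Alpl, the phosphatase that breaks it down (-0.62). Kl, the co-receptor of FGF23, and the vitamin D enzymes Cyp24a1 and Cyp27b1, all of them chiefly kidney genes, were under the minimum.

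**Figure D4:**
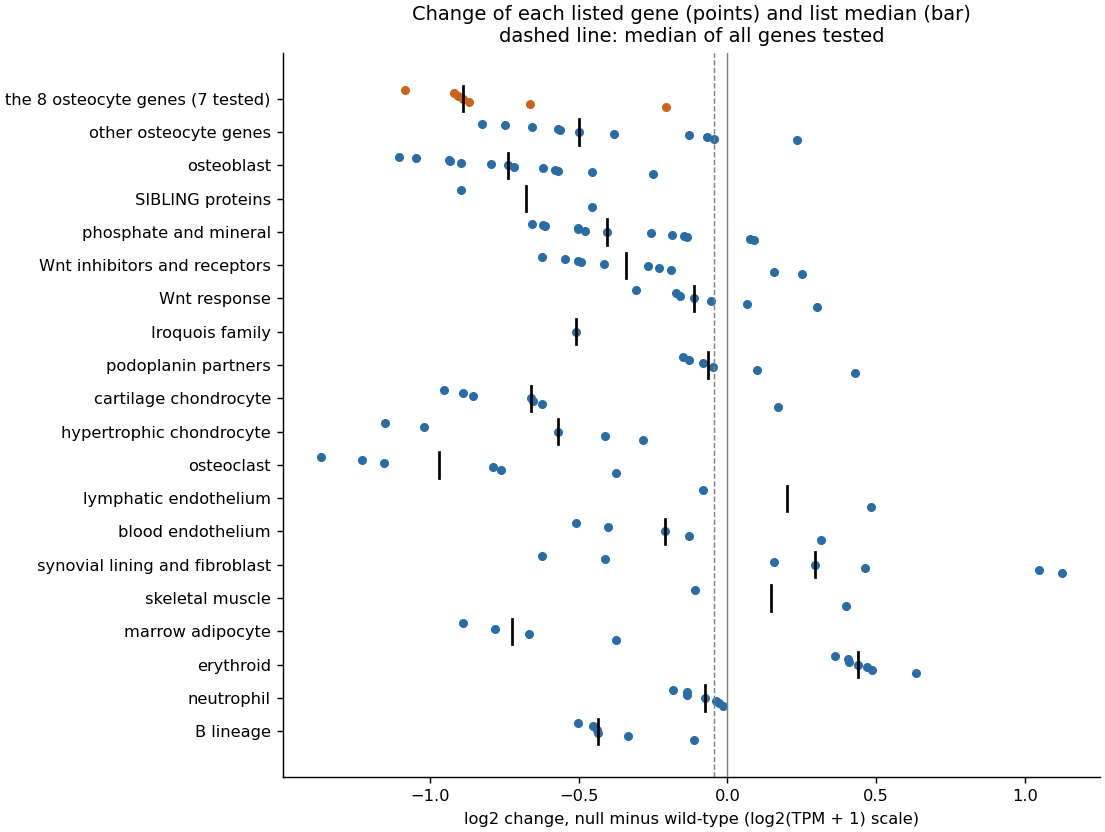
Log2 change of every listed gene tested, null minus wild-type (horizontal axis, points), in the osteocyte genes (orange) and 19 other lists (blue), with a black bar at the median of each list and a dashed line at the median of all genes tested. The osteocyte genes have a median of -0.89, the osteoblast genes -0.74 and the osteoclast genes -0.97, and the erythroid genes lie to the right of 0 with a median of 0.44.

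Promoters of the osteocyte genes were read as a description, and their part in the shared variation of 6 of the genes was not tested. RefSeq (GRCm38.p6) gave windows for 7 of the 8 genes, Irx5 being without one, and the 250 bases before each start were searched on both strands for the RUNX core TGTGGT, the TATA box TATAAA and the TCF/LEF core CTTTGA. These were found in 14.1%, 12.4% and 13.8% of 32851 windows of that length. Windows of Dkk1, Mepe and Dmp1 held a RUNX core and are shown with matches in capitals, a match on the other strand appearing as its complement.
Dkk1, chr19:30549497-30549746, minus strand: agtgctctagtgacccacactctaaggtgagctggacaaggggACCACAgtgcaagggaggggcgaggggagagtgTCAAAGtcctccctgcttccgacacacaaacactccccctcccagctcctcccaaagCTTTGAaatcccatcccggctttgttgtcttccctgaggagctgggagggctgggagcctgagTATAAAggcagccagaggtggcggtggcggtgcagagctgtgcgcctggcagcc
Mepe, chr5:104325079-104325328, plus strand: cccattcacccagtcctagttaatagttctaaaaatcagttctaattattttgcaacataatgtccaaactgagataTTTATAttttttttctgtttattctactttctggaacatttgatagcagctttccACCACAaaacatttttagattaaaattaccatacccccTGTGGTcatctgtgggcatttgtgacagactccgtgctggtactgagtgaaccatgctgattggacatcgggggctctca
Dmp1, chr5:104202367-104202616, plus strand: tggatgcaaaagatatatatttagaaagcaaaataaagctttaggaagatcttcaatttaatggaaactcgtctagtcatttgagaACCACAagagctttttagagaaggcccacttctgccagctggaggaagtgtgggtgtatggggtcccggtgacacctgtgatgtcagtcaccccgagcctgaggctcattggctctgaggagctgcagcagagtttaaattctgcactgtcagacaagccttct
Mepe held 2 RUNX cores, 118 and 80 bases before its start, and the complement of a TATA box 173 bases before it, and this window of Dmp1 held 1, 164 bases before. RefSeq gives Dmp1 a second window, chr5:104197325-104197574, which held none of the 3 motifs. Dkk1 held 1 RUNX core, a TATA box 54 bases before its start and 2 TCF/LEF cores, 174 and 117 bases before, which overlapped no other match. Fgf23 held 1 TCF/LEF core, and Sost, Phex and Pdpn held none of the 3 motifs. A match is a description and not a shown binding site, and the lack of one says only that these letters are not in this window.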

How the data were processed

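The authors deposited 1 table of TPM values per transcript, with 1 column per mouse. Kallisto and DESeq2 are named in the submitters' processing notes, which also give GRCh38, a human build, although the identifiers in the table are those of mouse transcripts. Versions, index and trimming were not given in the sources used here. TPM holds no read counts, so depth is unknown, no counting interval was computed, and abundant transcripts lower the TPM of all others.

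Transcript versions were dropped, 115440 of 116912 transcripts were matched to GENCODE M21 (GRCm38), and TPM was summed per gene. The 1472 unmatched transcripts held 0.275% to 0.356% of a library. Genes whose mean reached 1 TPM were compared on log2(TPM + 1), on which changes of low genes are understated, with limma 3.58.1 in R 4.3.3 (eBayes with a trend, two-sided, Benjamini-Hochberg over all genes tested, threshold 0.05), all 10 mice and no covariate. A two-sided exact permutation test over mice was run beside it in Python 3.11.15. Scripts were tested on simulated data. The labels name no batch and 0 columns belonged to other samples. The design text describes individual mice.

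The osteocyte genes and the lists were chosen with earlier results of these data known. Of a list, genes with an unadjusted limma p under 0.05 were to be named, up to 6 by smallest p, otherwise the most abundant gene. For each osteocyte gene, the 3 most correlated genes outside the osteocyte genes were also to be named. Lyve1, Clec1b and genes under the minimum, such as Dspp, were named after their values were seen. Some genes are on more than 1 list, and 1 listed gene that entered the counts is not reported singly here. Alternatives covered the pseudocount, filter, scaling, covariates, variance trend, test and leaving out each mouse.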

Additional observations from a re-analysis of the deposited data

How the results depend on the processing

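The limits are the 5 mice per genotype, the unknown depth, the relative scale of TPM and wild-type replicate 1, and no gene passed the adjusted threshold with all 10 mice. All 7 osteocyte genes tested kept a change below 0 under the pseudocounts of 0.1 and 0.5, the scalings, the fit without the variance trend and every fit that left out 1 mouse. The minimum of 5 TPM removed Pdpn and left 6 of 6 below 0, and without a minimum the count was 8 of 8 with Fgf23, from whose level near 0 nothing is read. With the osteoblast score as a covariate, the median change was -0.1858, Sost was at 0.04825 and Pdpn at 0.6339, 1 osteocyte gene had an unadjusted p under 0.05, and 123 genes were lower and 348 higher with such a p. In that fit Enpp1 (0.0009725), Wif1 (0.08204), Tcf7 (0.1054), Col2a1 (0.2227), Ocstamp (0.006946) and Prg4 (0.2126) also had a change above 0. So did Ibsp (0.155), Alpl (0.1711) and Pth1r (0.1248), which are themselves part of the score. The changes of the score's own genes average 0 in this fit by construction, so nothing is read from the sign of these. Genes higher with an unadjusted p under 0.05 numbered 914 after median ratio scaling, and 1217 with 577 lower after rescaling without haemoglobin genes (the cause was not tested), and the median change of all genes, -0.05 as deposited, was 0.01 and 0.04. Flt4 was at 0.01307 after quantile normalization and Msn at 0.00786 without haemoglobin genes. The exact permutation test gave 3 osteocyte genes an unadjusted p under 0.05.

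Leaving out 1 mouse, 0 to 1 genes had an adjusted p under 0.05 (1 without wild-type replicate 3, wild-type replicate 4 or null replicate 1), and 620 (without wild-type replicate 1) to 1355 (without null replicate 3) genes were lower with an unadjusted p under 0.05. It was 626 without null replicate 1 and 668 without null replicate 5. Of the osteocyte genes, 3 (without wild-type replicate 1, null replicate 4 or null replicate 5) to 6 had such a p, and their median change lay between -1.07 and -0.7155. Tnnt3, a muscle gene, ranged from -0.1073 (without null replicate 2) to 0.715 (without null replicate 5).

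With the replicate number as a block, the changes were as without it, 0 genes had an adjusted p under 0.05 and the adjusted limma p of the 7 genes lay between 0.529 and 0.895. With the replicate block the same 6 osteocyte genes had an unadjusted p under 0.05, and 709 genes were lower and 459 higher with one. Mice of the same number did not deviate together, the correlations of their deviations from the group means being -0.107, -0.0066, -0.144, 0.0564 and 0.0207, so the numbers were not taken to pair mice.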

Other observations

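Within the lists of other cell types, genes with an unadjusted limma p under 0.05 (at most 6 a list) had adjusted p-values between 0.277 and 0.427, and their log2 changes, null minus wild-type, are given here with no explanation. Of the osteoblast genes, Bglap2 was at -1.05, Col1a2 at -0.93 and Sparc, which encodes the matrix protein osteonectin, at -0.80. Of the osteoclast genes, the fusion receptor gene Dcstamp was at -1.23, the phosphatase gene Acp5 at -1.16, Atp6v0d2, a subunit of the proton pump, at -0.79, Ocstamp at -0.76 and Mmp9 at -0.38. Mmp13, the collagenase of hypertrophic cartilage, was at 162 ± 44.6 TPM in the wild-type and 74.9 ± 30.7 TPM in the null mice (SD, n = 5). Its log2 change was -1.15 and its genotypes did not overlap, a separation seen with null lower in 1.06% of genes tested. Lrp5 was separated in the same way, with null mice up to 18.12 TPM and wild-type mice from 18.54 TPM. Col10a1, the collagen of hypertrophic cartilage, was at -1.02 and Pth1r at -0.57. Of the cartilage genes, Col11a1 was at -0.95, Col9a2 at -0.89, Acan at -0.86, the transcription factor gene Sox9 at -0.66 and Col2a1 at -0.66.

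Among marrow adipocyte genes, Cfd was at -0.89, Plin1 at -0.78, Fabp4 at -0.67 and Adipoq at -0.38. Among endothelial genes, Emcn was at -0.51 and Cdh5 at -0.40, and among B lineage genes Cd79a and Cd79b were both at -0.44. Among erythroid genes, Alas2, the first enzyme of haem synthesis in red cells, was at 0.44, Hba-a1 at 0.49 and Slc4a1, the anion exchanger of the red cell membrane, at 0.63. Without wild-type replicate 1, Slc4a1 was at 0.45, Acan at -0.57 and Sox9 at -0.40, against -1.09 for Mmp13 and -0.68 for Fabp4.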
